A study of Mus musculus with 9 samples.

Results

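The globin genes of the red cell were followed through the tissues of the developing mouse skull: the adult alpha-globins Hba-a1 and Hba-a2, the adult beta-globins Hbb-bs and Hbb-bt, the embryonic globins Hba-x, Hbb-y and Hbb-bh1, and Alas2, the first enzyme of heme synthesis in red cells. These 8 genes of 43548 gene identifiers in the table were picked by name, with their values in these libraries already known. They were selected on the same comparisons that are described here, so their own differences are given as descriptions without a test.

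mRNA was sequenced in the heads of E14.5 embryos, with Fgf8b, a splice form of the growth factor gene Fgf8, overexpressed from the surface ectoderm. MCAGF8 embryos carried the Msx2-Cre transgene together with the CAGF8 allele, in which the CAG promoter drives Fgf8b once Cre has acted, and gave 1 group, the cranial vault. The control embryos gave the other 2 groups, the control vault and the control base, the second being cartilage cut from the cranial base after the brain had been taken out. The labels call the controls wildtype and the strain mixed, whereas by the breeding described in the methods the controls lacked Cre and carried the CAGF8 allele in its silent form, so that all 3 groups shared the allele. The skin was peeled off before the vaults were collected. Each group had 3 libraries, and RNA of 3 of the 9 tissue samples was pooled for each library, so the spread between single embryos was not measured. The control embryos gave first vault and then base tissue, and how their samples were assigned to the pools was not described. All p-values measure the spread between pools.

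Hemoglobin is built from alpha-type and beta-type chains, each from its own gene cluster, with heme in every chain. The first red cells of the mouse arise in the yolk sac and make the embryonic chains zeta (Hba-x), epsilon-y (Hbb-y) and beta-h1 (Hbb-bh1) beside adult alpha chains; red cells that arise later, in the fetal liver, make adult alpha and beta chains. In mid-gestation both kinds circulate together. Young red cells keep globin mRNA at high level after other transcripts are gone, so blood in the vessels of a dissected tissue carries it into bulk RNA.

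In the GRCm38 assembly with GENCODE M21 annotation, the alpha-type genes lie in order on the plus strand of chromosome 11, with Hba-x (ENSMUSG00000055609) at chr11:32276400-32278116, Hba-a1 (ENSMUSG00000069919) at chr11:32283511-32284465 and Hba-a2 (ENSMUSG00000069917) at chr11:32296489-32297298. The beta-type genes lie on the minus strand of chromosome 7, from Hbb-y (ENSMUSG00000052187) at chr7:103851749-103853216 over Hbb-bh1 (ENSMUSG00000052217) at chr7:103841637-103843164 and Hbb-bs (ENSMUSG00000052305) at chr7:103826534-103828096 to Hbb-bt (ENSMUSG00000073940) at chr7:103812524-103813996. Alas2 (ENSMUSG00000025270) lies at chrX:150547375-150570638 on the plus strand. In both clusters the embryonic gene comes first in the direction of transcription. The build behind the deposited values was not stated, so these positions describe the reference only.

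The 110 bases before the RefSeq start of transcription are shown for the 7 of the 8 genes that the RefSeq promoter table of GRCm38.p6 holds. Because RefSeq starts can differ from the GENCODE starts given above, some of these windows lie inside the GENCODE gene. They are written 5′ to 3′ on the gene's strand, and capitals mark, on either strand, the CCAAT box (letters CCAAT), the box bound by Klf1-type factors (letters CACCC), the box bound by Gata factors (letters GATAA) and the TATA-like boxes (letters ATAAA and letters ATATAA), with matches that touch or overlap joined in 1 run. Hba-a1 is chr11:32283562-32283671, Hba-a2 chr11:32296382-32296491 and Hba-x chr11:32276490-32276599, all on the plus strand. Hbb-bs is chr7:103827929-103828038, Hbb-bt chr7:103813924-103814033 and Hbb-y chr7:103853208-103853317, all on the minus strand, and Alas2 is chrX:150547307-150547416 on the plus strand.
Hba-a1: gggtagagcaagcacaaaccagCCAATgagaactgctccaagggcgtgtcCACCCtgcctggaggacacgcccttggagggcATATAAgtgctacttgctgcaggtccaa
Hba-a2: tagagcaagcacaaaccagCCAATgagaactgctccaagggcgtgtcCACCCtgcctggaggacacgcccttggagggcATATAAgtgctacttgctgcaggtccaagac
Hba-x: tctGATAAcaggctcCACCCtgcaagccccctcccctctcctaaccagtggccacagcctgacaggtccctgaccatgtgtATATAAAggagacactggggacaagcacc
Hbb-bs: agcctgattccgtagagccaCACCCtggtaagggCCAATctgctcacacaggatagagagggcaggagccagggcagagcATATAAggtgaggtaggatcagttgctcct
Hbb-bt: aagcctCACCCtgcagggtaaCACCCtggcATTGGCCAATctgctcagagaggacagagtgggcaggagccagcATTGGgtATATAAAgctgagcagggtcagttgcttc
Hbb-y: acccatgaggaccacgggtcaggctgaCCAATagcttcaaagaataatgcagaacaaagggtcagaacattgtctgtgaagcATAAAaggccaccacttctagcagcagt
Alas2: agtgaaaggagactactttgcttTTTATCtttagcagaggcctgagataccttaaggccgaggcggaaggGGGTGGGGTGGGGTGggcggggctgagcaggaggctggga

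Hba-a1 and Hba-a2 shared an unbroken run of 247 of the 250 bases upstream of their RefSeq starts. Hbb-bs and Hbb-bt were identical at 80 of 110 aligned positions (72.7%) and Hba-x and Hba-a1 at 49 of 110 (44.5%). CCAAT stood in 5 of the 7 windows and in 20.2% of 32851 RefSeq windows of the same length. CACCC stood in 6 of 7 against 29.6% of all windows, and ATATAA in 5 of 7 against 4.09%. GATAA was present in Hba-x and Alas2 only, against 9.43% of all windows, and ATAAA in Hba-x, Hbb-bt, Hbb-y and Alas2, against 18.9%. In Hbb-bt and Hba-x the ATATAA and ATAAA matches overlap. The ATAAA match of Alas2 lies on the opposite strand at -87 and overlaps its GATAA match. Those of Hba-x and Hbb-bt begin at -27 and that of Hbb-y at -28, so the Alas2 match does not stand at a like position. A match of letters is a description and does not show that a factor binds there.

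The transcripts of the adult pairs are also nearly alike, which bears on how reads were divided between them. Of the 549 stretches of read length in Hba-a1, 265 (48.3%) occurred unchanged in Hba-a2, and 65.6% of the 404 stretches of Hba-a2 occurred in Hba-a1. Hbb-bs and Hbb-bt shared 280 stretches, 58.6% of the one and 50.6% of the other. No stretch of Hba-x, Hbb-y or Hbb-bh1 occurred in another listed globin transcript. The division of FPKM within an adult pair is therefore uncertain, and the pairs are read mainly through their sums.

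The values are FPKM, fragments scaled to transcript length and to library size, which allows levels to be compared between genes. The libraries summed to between 793249.1 and 1315981.5 FPKM and held 16006 to 17281 genes at 1 FPKM or more, and the number of reads is unknown. The base libraries did not all look like cartilage. Col2a1, the main collagen of cartilage, was at 163, 2292 and 268 FPKM in base replicates 1, 2 and 3, against 373 to 462 FPKM in the control vault and 583 to 1146 in the MCAGF8 vault. Acan, the cartilage proteoglycan aggrecan, was at 12.7, 240.6 and 26.5 FPKM in the base and 32.8 to 42.8 in the control vault. Base replicates 1 and 3 thus stood below the control vault in cartilage genes, against their label, and results on the base are also given for replicate 2 alone. The bone genes Ibsp and Spp1 marked the control vault, with Ibsp at 679 to 1527 FPKM there, 189 to 638 in the base and 11.5 to 50.7 in the MCAGF8 vault, and Spp1 at 306 to 841, 89.8 to 237 and 11.5 to 39.6 FPKM in the same order.

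All 8 genes passed the filter of a mean of at least 0.5 FPKM, and the adult globins and Hbb-y were among the most abundant transcripts, with the exception of Hba-a2. Hba-a1 ranked between 2 and 77 among all genes of a library, Hbb-bs between 4 and 27, Hbb-y between 13 and 198 and Hbb-bt between 22 and 130. Hba-x (717 to 6947), Alas2 (3100 to 6867) and Hbb-bh1 (4502 to 12826) ranked far lower. By mean FPKM over the 9 libraries the order was Hbb-bs, Hba-a1, Hbb-bt, Hbb-y, Hba-a2, Hba-x, Alas2 and Hbb-bh1. Every pair of neighbours in this order overlapped in range over the libraries, and Hbb-bt and Hbb-y were the pair with the means nearest to each other in ratio (1849 and 1801 FPKM). Together the 7 globins held 1.35% to 1.74% of summed FPKM in the control vault, 1.23% to 1.88% in the MCAGF8 vault and 0.635% to 0.841% in the base. The base was thus lower than either vault in every library, and both vaults overlapped. In bulk tissue, fewer red cells and less globin mRNA per red cell cannot be told apart.

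**Figure D1:**
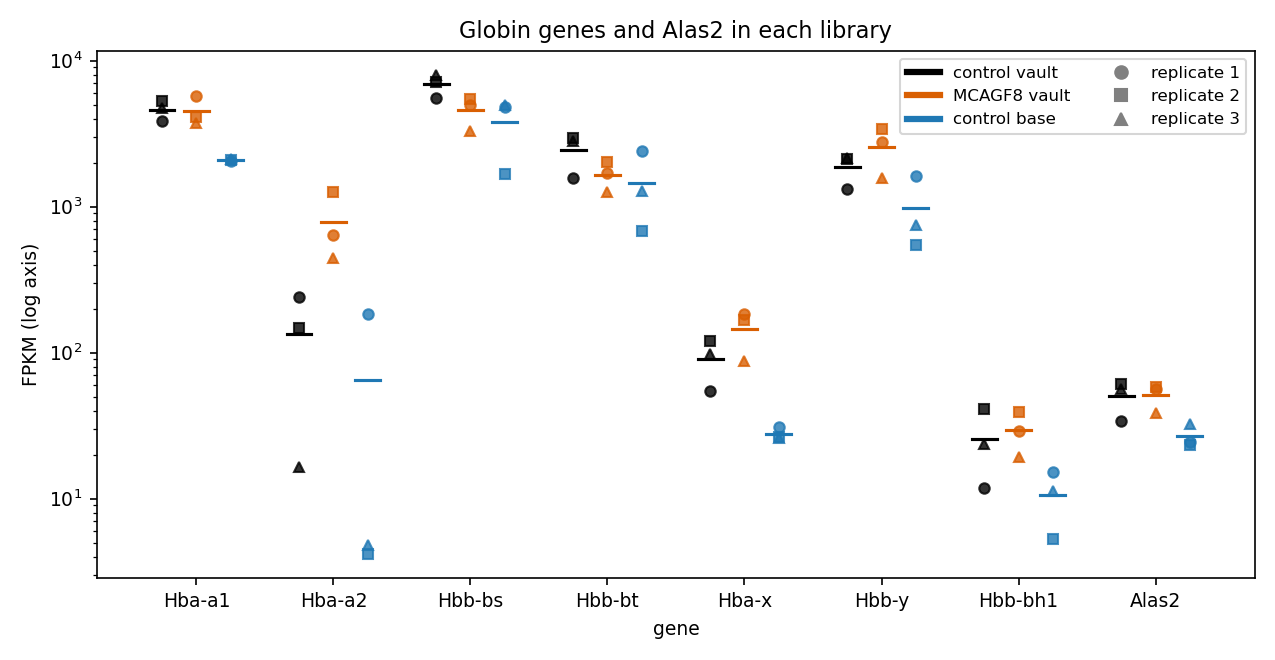
FPKM of the 8 genes on a log axis, with a point for each library, a colour for each group, a symbol for each replicate number and a line at the group mean. Hba-a1 sits between 2038 and 2110.1 FPKM in the 3 base libraries and at 3749 FPKM or more in all vault libraries, while Hba-a2 spreads from 4.18 to 1269 FPKM.

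Hba-a1, the main adult alpha-globin in this table, was at 3866, 5260.2 and 4713 FPKM in control vault replicates 1 to 3, at 5722, 4100.4 and 3749 FPKM in the MCAGF8 vault and at 2038, 2099 and 2110.1 FPKM in the base. The base libraries lay within 1.04-fold of each other and below every vault library. The mean was 4613 ± 703 FPKM (SD, n = 3) in the control vault, 4524 ± 1052 in the MCAGF8 vault and 2082 ± 39.1 in the base. On the log2(FPKM + 1) scale the base differed from the control vault by -1.14 ± 0.36 (SE) and the MCAGF8 vault from the control vault by -0.04 ± 0.36.

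Hba-a2, its near copy, was at 240, 148 and 16.5 FPKM in the control vault, 644, 1269 and 447 FPKM in the MCAGF8 vault and 184, 4.18 and 4.79 FPKM in the base. All MCAGF8 libraries were above all others, but the spread inside the control groups was 14.51-fold and 44.1-fold. Hba-a2 made up 10.1%, 23.6% and 10.6% of adult alpha FPKM in the MCAGF8 vault, 5.84%, 2.73% and 0.349% in the control vault and 8.30%, 0.199% and 0.226% in the base. Since many read-length stretches of the pair are shared, the sum of both is given as well. Adult alpha FPKM was 4748 ± 652 in the control vault, 5310.1 ± 1086 in the MCAGF8 vault and 2147 ± 65.5 in the base (SD, n = 3). The base thus held 0.452 of the control vault level (log2 -1.14 ± 0.12), with every base library lower, and the vaults overlapped. The SE of this sum came from the libraries of the compared groups alone. That of Hba-a1 came from the fit over all genes, so the sum is not shown to be more precise.

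Hbb-bs, the more abundant adult beta-globin, was at 5507, 7167 and 8004 FPKM in the control vault, 4957, 5415 and 3299.9 FPKM in the MCAGF8 vault and 4779, 1669 and 5002 FPKM in the base. Its partner Hbb-bt was at 1579, 2934 and 2827 FPKM in the control vault, 1688, 2014 and 1249.6 FPKM in the MCAGF8 vault and 2395, 682 and 1269.6 FPKM in the base. Both were lowest in base replicate 2, the pool richest in cartilage genes. For Hbb-bs, every MCAGF8 and every base library was below every control vault library, whereas for Hbb-bt the groups overlapped. Hbb-bt made up 25.8% ± 3.39 of adult beta FPKM in the control vault, 26.7% ± 1.10 in the MCAGF8 vault and 27.5% ± 6.69 in the base (SD, n = 3). Adult beta FPKM was 9339 ± 1985 in the control vault, 6208 ± 1489 in the MCAGF8 vault and 5266 ± 2564 in the base. Against the control vault this was a log2 difference of -0.60 ± 0.29 for the MCAGF8 vault and -0.96 ± 0.54 for the base, and the groups overlapped in both.

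The alpha-type and beta-type genes, with the embryonic ones included in both, did not vary in step in the base. The ratio of alpha-type to beta-type FPKM was 0.256, 0.733 and 0.304 in base replicates 1, 2 and 3. It was 0.494, 0.451 and 0.372 in the control vault and 0.695, 0.510 and 0.699 in the MCAGF8 vault. All MCAGF8 ratios were above all control vault ratios (0.635 ± 0.108 against 0.439 ± 0.062), and the base spanned both.

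Hba-x, the embryonic zeta chain, was at 54.6, 121 and 97.7 FPKM in the control vault, 184, 166 and 88.2 FPKM in the MCAGF8 vault and 31.0, 26.4 and 26.2 FPKM in the base. The base was below every vault library, and the vaults overlapped. Group means were 91.1 ± 33.7, 146 ± 50.8 and 27.9 ± 2.76 FPKM in that order. The log2 difference of the base from the control vault was -1.60 ± 0.34, that of the MCAGF8 vault from the control vault 0.68 ± 0.34 and that of the MCAGF8 vault from the base 2.28 ± 0.34.

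Hbb-y, the embryonic epsilon-y chain, was at 1328, 2126 and 2137 FPKM in the control vault, 2751, 3381 and 1559.8 FPKM in the MCAGF8 vault and 1627, 548 and 752 FPKM in the base. It was by far the largest embryonic globin, with 92.8% to 97.2% of embryonic FPKM in every library. Its group means of 1864 ± 463, 2564 ± 925 and 975 ± 574 FPKM overlapped in single libraries in every comparison. The log2 difference was -1.06 ± 0.47 for the base and 0.42 ± 0.47 for the MCAGF8 vault, each against the control vault, and 1.48 ± 0.47 for the MCAGF8 vault against the base.

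Hbb-bh1, the beta-h1 chain that is most used in the earliest yolk sac red cells, was at 11.8, 41.3 and 23.7 FPKM in the control vault, 29.2, 39.3 and 19.4 FPKM in the MCAGF8 vault and 15.3, 5.29 and 11.2 FPKM in the base. By group mean the order was that of Hbb-y, with a log2 difference of -1.14 ± 0.48 for the base and 0.30 ± 0.48 for the MCAGF8 vault against the control vault. Hbb-y exceeded Hbb-bh1 by 51.5-fold to 113-fold in the control vault and by 80.5-fold to 94.1-fold in the MCAGF8 vault. The ratio in the base, 66.9-fold to 106-fold, lay inside that of the control vault.

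Alas2, which makes the first heme precursor in red cells, was at 34.0, 61.0 and 56.0 FPKM in the control vault, 56.4, 57.8 and 38.6 FPKM in the MCAGF8 vault and 24.5, 23.3 and 32.5 FPKM in the base. Every base library was below every vault library, with means of 50.3 ± 14.4, 50.9 ± 10.7 and 26.8 ± 5.0 FPKM. The log2 difference of the base from the control vault was -0.86 ± 0.26 and that between the vaults 0.04 ± 0.26. Globin FPKM per unit of Alas2 was 327 ± 40.0 in the control vault, 279 ± 7.90 in the MCAGF8 vault and 317 ± 122 in the base.

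**Figure D2:**
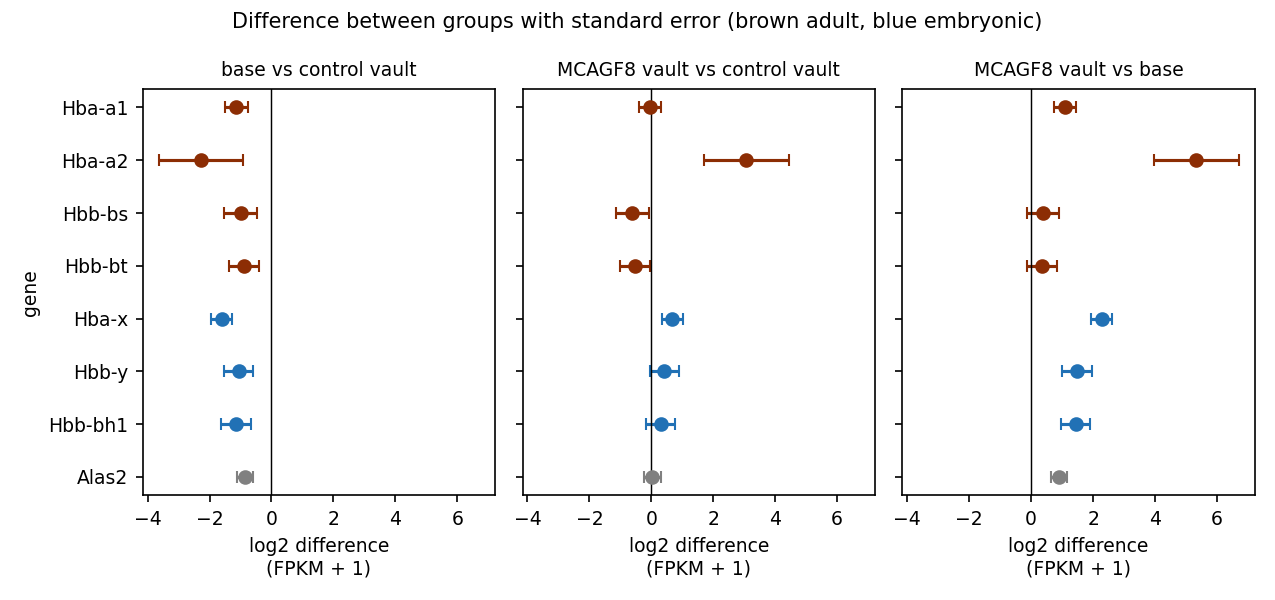
Log2 difference (FPKM + 1) between group means for the 8 genes in the 3 comparisons, with bars of 1 standard error from the fit over all genes. All 8 points lie below 0 for the base against the control vault, while for the MCAGF8 vault against the control vault Hba-x, Hbb-y and Hbb-bh1 lie at 0.30 to 0.68 and Hbb-bs and Hbb-bt at -0.61 and -0.54. In that comparison the adult Hba-a2 lies above the embryonic genes, and Hba-a1 and Alas2 lie between these and the adult beta-globins.

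Summed over genes, the adult globins reached 11192, 15509 and 15560 FPKM in the control vault, 13010, 12798 and 8746 FPKM in the MCAGF8 vault and 9396, 4454 and 8387 FPKM in the base. The embryonic globins reached 1395, 2288 and 2258 FPKM, 2964, 3586 and 1667 FPKM, and 1674, 579 and 789 FPKM in the same order. Every base library was below every control vault library in the adult sum, and the embryonic sums overlapped. Against the control vault, the log2 difference of the base was -0.98 ± 0.37 for the adult and -1.08 ± 0.51 for the embryonic sum. With base replicate 2 alone, these were -1.64 and -1.74, and without replicate 2 they were -0.65 and -0.75. The base thus lay below the control vault in both sums with each choice of base libraries, and the size depended on that choice.

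Between the vaults the sums moved apart, the adult sum by -0.30 ± 0.24 and the embryonic sum by 0.43 ± 0.41 on the log2 scale, with overlap in both. The adult value lay between -0.45, without control vault replicate 1, and -0.11, without MCAGF8 vault replicate 3. The embryonic value fell to 0.20 without control vault replicate 1 or without MCAGF8 vault replicate 2 and reached 0.76 without MCAGF8 vault replicate 3. Within the adult sum, adult alpha differed by 0.15 ± 0.21 and adult beta by -0.60 ± 0.29. Neither the adult nor the embryonic sum by itself separated the vaults. Against the base, the MCAGF8 vault differed by 0.68 ± 0.38 in the adult sum (0.35 without base replicate 2) and by 1.51 ± 0.56 in the embryonic sum, and the single libraries overlapped.

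**Figure D3:**
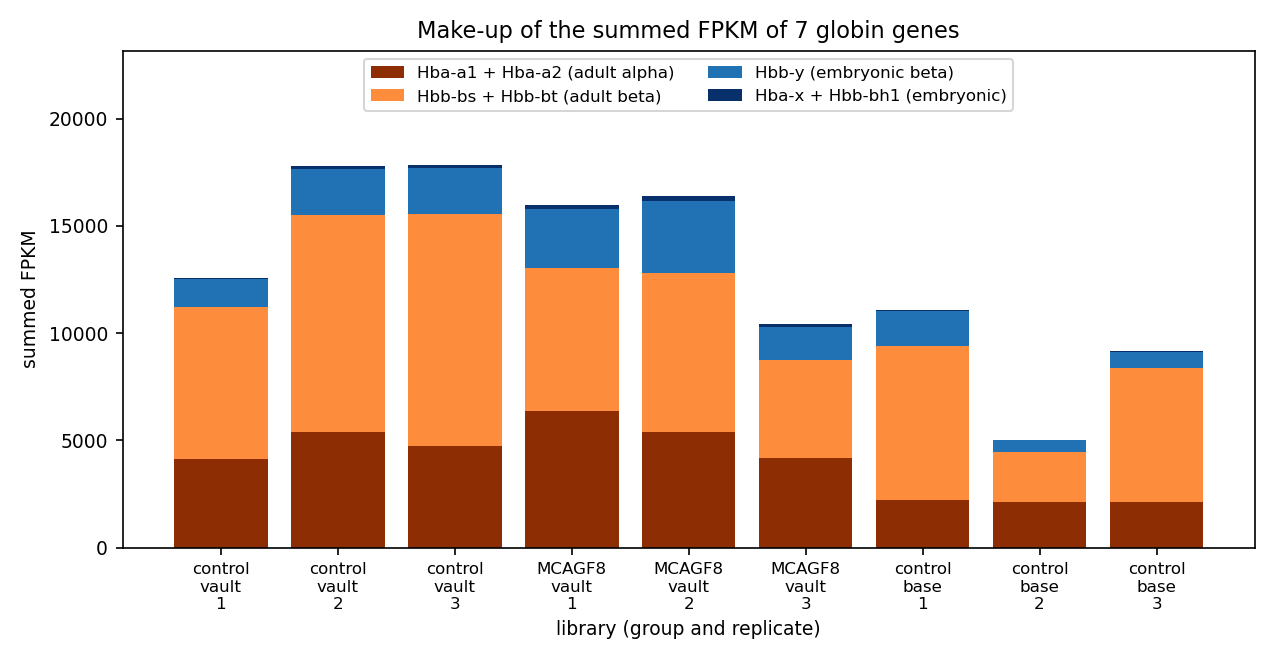
Summed FPKM of 7 globin genes in each of the 9 libraries, as stacked bars from 0 split into adult alpha, adult beta, Hbb-y and the sum of Hba-x and Hbb-bh1. The adult alpha block is 2103 to 2222 FPKM high in the base and 4105 FPKM or more in the vaults, and the Hbb-y block is highest in MCAGF8 vault replicate 2 (3381 FPKM).

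The embryonic share of globin FPKM separated the MCAGF8 vault from both control tissues. It was 11.1%, 12.9% and 12.7% in the control vault, 18.6%, 21.9% and 16.0% in the MCAGF8 vault and 15.1%, 11.5% and 8.60% in the base. Every MCAGF8 library was above every control library. The mean share was 12.2% ± 0.976 in the control vault, 18.8% ± 2.95 in the MCAGF8 vault and 11.7% ± 3.27 in the base (SD, n = 3). The MCAGF8 vault was higher by 6.61 ± 1.79 percentage points than the control vault and by 7.08 ± 2.54 than the base. The base differed from the control vault by -0.46 ± 1.97 points, which is less than the spread between libraries.

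Within the beta cluster alone the groups were further apart. Hbb-y and Hbb-bh1 together held 15.9%, 17.7% and 16.6% of beta-type FPKM in the control vault, 29.5%, 31.5% and 25.8% in the MCAGF8 vault and 18.6%, 19.0% and 10.8% in the base. The difference of the MCAGF8 vault was 12.2 ± 1.76 points from the control vault and 12.8 ± 3.15 points from the base. Base replicate 2, the pool with cartilage genes, had 19.0%, the highest share of the base and still below the lowest MCAGF8 library. No read-length stretch of Hbb-y or Hbb-bh1 occurs in Hbb-bs or Hbb-bt. The adult pair enters this share as a sum, and how reads from its shared stretches were counted in that sum is unknown.

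Within the alpha cluster Hba-x held 1.31%, 2.19% and 2.02% in the control vault, 2.81%, 3.00% and 2.06% in the MCAGF8 vault and 1.38%, 1.24% and 1.22% in the base. MCAGF8 vault replicate 3 lay between control vault libraries, so the vaults overlapped, with a difference of 0.78 ± 0.39 points. All MCAGF8 libraries were above all base libraries, by 1.34 ± 0.29 points. Adult alpha FPKM was 56.1 ± 16.6 times that of Hba-x in the control vault, 38.2 ± 8.21 times in the MCAGF8 vault and 77.4 ± 5.05 times in the base.

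**Figure D4:**
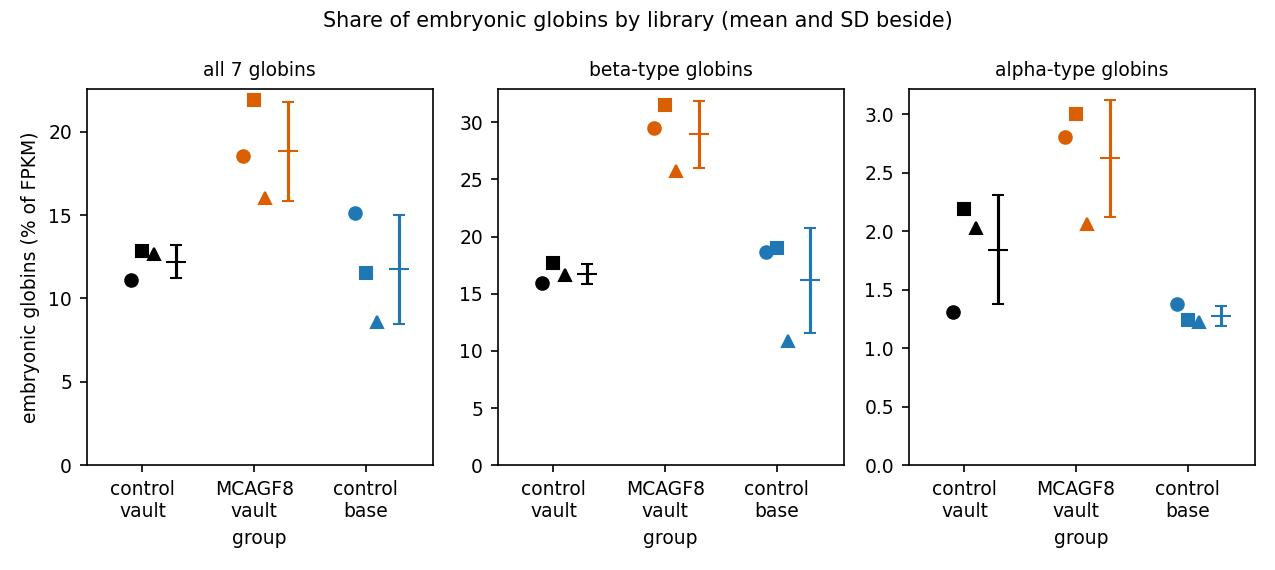
Embryonic globins in percent of the FPKM of all 7 globins, of the beta-type genes and of the alpha-type genes, with a point for each library and the mean and SD beside each group; the 3 axes differ in range. In the beta-type panel the MCAGF8 vault lies at 25.8% to 31.5% and all control libraries at 10.8% to 19.0%, whereas in the alpha-type panel MCAGF8 vault replicate 3 (2.06%) lies within the control vault.

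Part of the spread inside groups ran with transcript length, a check that was added after the data had been seen. Globin transcripts are short, 554 to 801 bases for the longest annotated form of the 7 genes. Among the 500 other genes nearest in length to Hbb-bs, the median log2 deviation of a library from the gene's mean was 0.76, -0.43 and 0.32 in base replicates 1, 2 and 3. It was -0.19, 0.05 and 0.27 in the control vault and -0.42, 0.04 and -0.42 in the MCAGF8 vault. Short genes as a class were thus highest in base replicate 1, and low to a like degree in base replicate 2 and MCAGF8 vault replicates 1 and 3. Hbb-bs and Hbb-bt were lowest in base replicate 2, but Hbb-bs was lower in base replicate 1 (4779 FPKM) than in base replicate 3 (5002 FPKM).

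After each gene's value was lowered by that median for genes of its length, adult globin FPKM was 5551, 5981 and 6727 in the base, 12781, 14951 and 12893 in the control vault and 17223, 12502 and 11637 in the MCAGF8 vault. The base differed from the control vault by -1.15 ± 0.11 in the adult and -1.25 ± 0.23 in the embryonic sum. Embryonic globin FPKM was then 990 or less in the base, 1596 to 2206 in the control vault and 2221 to 3943 in the MCAGF8 vault, without overlap. Beta-type FPKM in the base, 3917 to 5630, then lay below all vault libraries, which began at 8169. Adult alpha FPKM in the base instead spread further apart. It was 1306, 2811 and 1706 in base replicates 1, 2 and 3, against 2222, 2103 and 2115 before the adjustment. These values still lay below all vault libraries, which began at 3926, but the closeness of the base libraries in adult alpha was not kept. Between the vaults the adult sum differed by 0.01 ± 0.19 and the embryonic sum by 0.74 ± 0.29, so the adult difference of -0.30 was not kept. The embryonic share was nearly the same as before, with differences of 6.62 ± 1.77 points from the control vault and 7.06 ± 2.54 points from the base.

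Over the 9 libraries the FPKM of the members rose and fell together to unequal degrees. The 3 pairs of embryonic globins had Pearson r of 0.878 to 0.927, and Hba-x with Hba-a1 (0.930), Hba-x with Alas2 (0.920) and Hbb-bs with Hbb-bt (0.906) were alike as well. Hba-x and Hbb-bs (0.487) were the least alike among the 21 pairs without Hba-a2, whose 7 pairs ran from 0.292 to 0.796. These values describe 9 libraries that share groups, library-wide scaling and the length trend, and they carry no test.

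Among 12926 other genes with a mean of at least 5 FPKM, those most like the adult globin sum over the 9 libraries were Mpg (r = 0.974), Calhm2, Adora2b, Cavin3, Rab29, Cdo1, Lgals9 and Ntn5 (0.952). Mpg encodes a DNA repair glycosylase and lies beside the alpha-globin cluster in the mouse genome. Its FPKM ran only from 31.2 to 40.0, against 81.5 to 509 for Cdo1. Those most like the embryonic globin sum were Hmox1 (r = 0.972), Rbpms, Inpp5d, Pdlim2, Lyl1, Fcgr3, Proca1 and Twist1 (0.937). Hmox1, the enzyme that breaks down heme, was at 57.0 FPKM on average in the control vault, 64.8 in the MCAGF8 vault and 35.9 in the base.

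Other globins were scarce. The theta-type genes Hbq1a and Hbq1b and the beta-cluster gene Hbb-bh2 stayed at or below 1.67 FPKM in every library, and Hbb-bh2 was listed at 0 in 8 of 9. Ngb, a globin of neurons, was at 0.770 FPKM or less. Cygb, found in fibroblasts, was at 5.78 to 21.4 FPKM. Mb, the oxygen store of muscle, was lower in the MCAGF8 vault than in the base (log2 -3.55 ± 0.57, adjusted p = 0.011).

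Genes of red cells other than the members were then read from the fit over 18714 genes, where a call needed p under 0.05 before and under 0.1 after Benjamini-Hochberg adjustment in limma. The lists held 61 genes, of which 51 were tested, 8 more were in the table at a mean below 0.5 FPKM, and Ahsp, the chaperone of alpha-globin, and Zfpm1 were not analysed here. For the base against the control vault 1 of the 51 was called, against 3.06% of all genes tested (347 higher and 226 lower, or 236 and 390 after quantile normalization). The one call was Aqp1, the water channel of red cells and of vessel walls, at 95.6, 80.1 and 96.2 FPKM in the base and 190, 254 and 219 FPKM in the control vault. Its log2 difference was -1.27 ± 0.21 with an adjusted p of 0.023 (0.0077 to 0.11 over 18 alternatives), and the call was lost without control vault replicate 2 or 3. Of the 51 genes, 9 (17.6%) had an unadjusted p under 0.05, against 12.8% of all genes tested. The median log2 difference was 0.04, against 0.07 for all genes tested, and after quantile normalization it was -0.05 against -0.04.

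For the MCAGF8 vault against the control vault none of the 51 was called by limma, against 0.604% of all genes tested. At an unadjusted p under 0.05 there were 4 (7.84%, against 6.34% of all genes tested), and the median was -0.02 against -0.01 for all genes. The unmoderated model gave 5 at that level, when 1223 of all genes reached it. It called 0 of all genes tested, so the lack of calls there says nothing on red cell genes. For the MCAGF8 vault against the base 6 of 51 were called, against 8.39% of all genes tested (558 higher and 1013 lower, or 1153 and 810 after quantile normalization and 812 and 819 after rescaling without globins). Aqp1 (1.45 ± 0.21, adjusted p = 0.0079) and Epor, the erythropoietin receptor (0.81 ± 0.24, adjusted p = 0.088), were higher in the MCAGF8 vault. Ank1, the ankyrin of the red cell membrane (-3.38 ± 0.56, adjusted p = 0.011), Tmod1, which caps its actin filaments (-2.84 ± 0.46, adjusted p = 0.011), Add2, the beta-adducin (-2.08 ± 0.44, adjusted p = 0.028), and Tspan33, a tetraspanin of red cell precursors (-1.02 ± 0.30, adjusted p = 0.096), were lower. The call of Epor held in 6 of 17 alternatives and that of Tspan33 in 3 of 17. Without base replicate 2 the count was 12 of 51, when 4580 of all 18714 genes were called. Without MCAGF8 vault replicate 1 it was 3, when 559 of all genes were called.

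Ank1 and Tmod1 are also used in skeletal muscle, and muscle genes were lower with them in the MCAGF8 vault than in the base. Ank1 was at 9.0, 40.4 and 13.7 FPKM in the control vault, 1.36, 1.35 and 3.20 in the MCAGF8 vault and 46.92, 14.503 and 34.498 in the base. The summed FPKM of 5 muscle genes was 745, 5035 and 1381 in the control vault, 14.6, 32.5 and 138 in the MCAGF8 vault and 10569, 1463 and 4249.5 in the base. Inside the base, Tmod1 (15.5, 12.9 and 9.35 FPKM) and Add2 (4.26, 6.01 and 17.7 FPKM) did not follow the order of the muscle sum. All 5 muscle genes were called lower in the MCAGF8 vault against the base (background 8.39%), each in 17 of 18 alternatives. Against the control vault all 5 were called lower too (background 0.604%), at adjusted p of 0.074 to 0.097, and these calls held in only 4 to 8 of 18 alternatives. The part of muscle in the values of Ank1, Tmod1 and Add2 was not tested.

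The regulators of the globin genes were low or did not pass the test. Gata1, the main transcription factor of red cells, was at 0.344, 0.827 and 0.590 FPKM in the control vault, 1.08, 0.718 and 1.37 FPKM in the MCAGF8 vault and 0.477, 0.210 and 0.294 FPKM in the base, and was not called in any comparison, although for the MCAGF8 vault against the base (adjusted p = 0.16) it was called in 2 of 17 alternatives. Klf1, the activator of adult beta-globin, stayed between 0.612 and 1.295 FPKM. Bcl11a, a repressor of embryonic beta-type globin genes in red cells that is also made in other tissues, was at 11.7, 7.002 and 11.7 FPKM in the control vault and 14.8, 20.4 and 17.6 in the MCAGF8 vault, all of the latter being higher. Its log2 difference of 0.77 ± 0.27 had an adjusted p of 0.52. Bcl11a in the base was at 10.7 to 17.9 FPKM.

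Apart from Aqp1, the membrane, heme and enzyme genes named from the red cell lists did not pass the test in the base against the control vault. Slc4a1, the anion exchanger band 3, was at 3.30 to 9.57 FPKM over all libraries. Fech, the last enzyme of heme synthesis, was at 43.9 ± 5.62 FPKM in the control vault, 45.9 ± 7.55 in the MCAGF8 vault and 34.3 ± 6.63 in the base. Tfrc, the transferrin receptor, was at 15.8 to 70.3 FPKM, Car2, a carbonic anhydrase, at 8.44 to 28.0, and Xpo7, an export factor of maturing red cells, at 8.46 to 13.5. Epor was at 3.52 to 4.35 FPKM in the control vault, 4.05 to 4.77 in the MCAGF8 vault and 1.31 to 2.62 in the base, where the difference from the control vault had an adjusted p of 0.26. Hemgn, a nuclear protein of blood precursors, stayed under the filter at 0.804 FPKM or less.

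**Figure D5:**
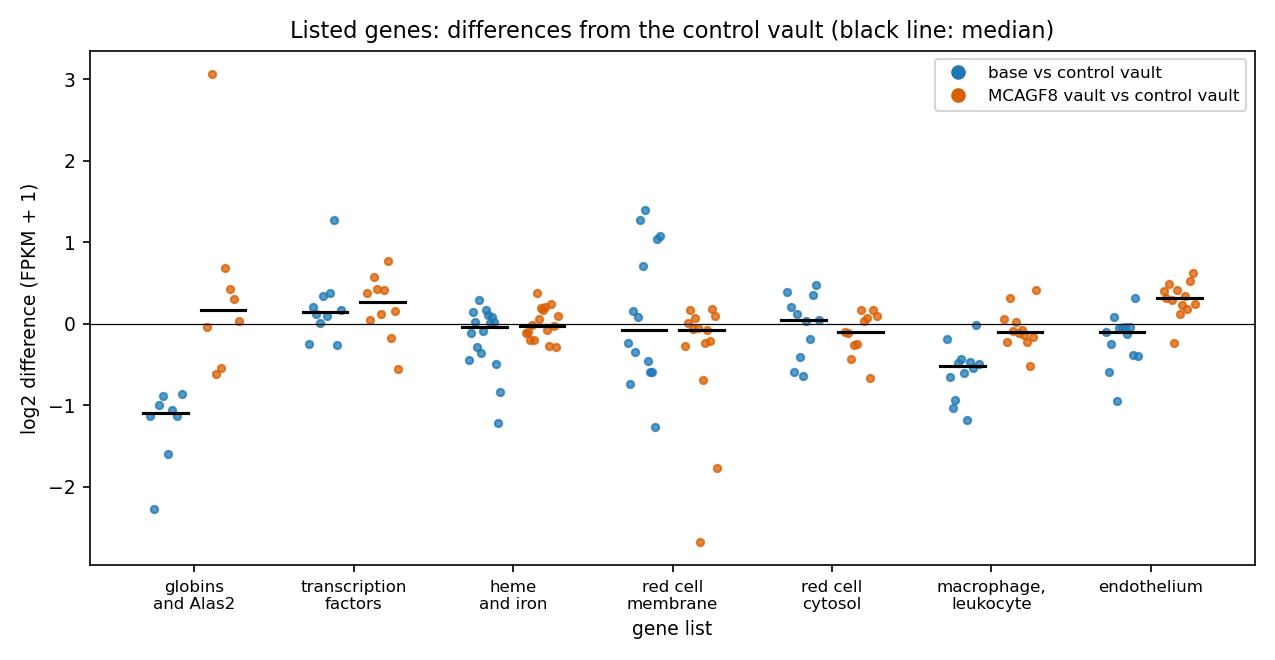
Log2 difference (FPKM + 1) from the control vault for each gene of 7 lists, blue for the base and orange for the MCAGF8 vault, with a black line at each median. In the base the globins and Alas2 lie at -2.27 to -0.86, while the other red cell lists have medians between -0.08 and 0.14; macrophage genes have a median of -0.51.

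Markers of other blood cells and of vessels were read beside the globins. Of 12 tested macrophage and leukocyte genes, 12 lay below the control vault in the base. Their median log2 difference was -0.51, against 0.07 for all genes tested. Of the 12, 3 were called lower, against 3.06% of all genes called. Among them was Csf1r, the receptor that macrophages need (13.3 ± 2.78 against 28.2 ± 3.36 FPKM, adjusted p = 0.066, called in 11 of 18 alternatives). The other 2 calls held in 8 and 10 of 18 alternatives. Against the base, 4 of the 12 were called higher in the MCAGF8 vault (background 8.39%), in 11 to 18 of 18 alternatives. The summed FPKM of the macrophage and leukocyte list was 443 to 561 in the control vault, 401 to 646 in the MCAGF8 vault and 206 to 550 in the base. Of 13 endothelial genes, 1 was called lower in the base against the control vault (background 3.06%), in 12 of 18 alternatives. Against the base, 4 were called higher in the MCAGF8 vault (background 8.39%), in 5 to 14 of 18 alternatives. The sum of the endothelial genes was 542 to 635 FPKM in the control vault, 646 to 844 in the MCAGF8 vault and 478 to 565 in the base. Pecam1, an adhesion molecule of vessel walls, was at 58.6 ± 10, 77.9 ± 12.9 and 54.4 ± 6.48 FPKM in that order. Of 6 tested platelet genes, 2 had an unadjusted p under 0.05 for the base against the control vault, against 12.8% of all genes tested. Neither passed after adjustment. Pf4, a platelet chemokine also made by macrophages, was at 84.3 ± 11.4 FPKM in the control vault, 58.3 ± 16.0 in the MCAGF8 vault and 40.0 ± 21.2 in the base. Of 8 genes of mast cells and granulocytes, 1 was called higher in the base against the control vault (background 3.06%), in 6 of 18 alternatives. Against the base, 2 were called lower in the MCAGF8 vault (background 8.39%), in 15 and 13 of 18. No marker of these lists was at 0 in all 9 libraries. The part of vessels, blood content or macrophages in the globin levels was not tested.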

How the data were processed

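RNAseq was analysed in 9 libraries, 3 each from the MCAGF8 vault, the control vault and the control base. Stranded mRNA libraries were read single-end. The authors mapped reads with gSNAP and derived the deposited FPKM with Cufflinks. Build, annotation and versions: not given in the sources used here. Read numbers are unknown, so precision is described by the SD of 3 pools and no counting interval is given.

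The 8 genes and all lists were chosen with earlier results of these data known. The 63 repeated rows were added to the row with the same identifier, and 9 genes with a placeholder in place of a value (17 cells) were left out. Of 43548 identifiers, 42375 had a symbol. Values were put on the log2(FPKM + 1) scale, and 18714 genes with a mean of at least 0.5 FPKM entered the fit, made with limma 3.58.1 (R 4.3.3) on all 9 libraries with a mean for each group and eBayes moderation along the mean-variance trend. The two-sided tests were adjusted by Benjamini-Hochberg over all genes tested, and calls needed p under 0.05 before and under 0.1 after adjustment. The fit was tested on simulated data. Values of the 8 genes, sums and shares are given with the SE of a difference of group means and no test. For single genes this SE came from the moderated limma fit over all 9 libraries. For sums and shares it came only from the spread of libraries within the groups compared. SEs of genes and of sums are therefore not comparable in size. Alternatives changed the pseudocount, filter, scaling, libraries, moderation or the row used, and removal of the length trend was added after seeing the data. The length trend was the median deviation of the 500 genes nearest in longest GENCODE M21 transcript.

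Named were the 8 genes, 12 fixed red cell genes (1 of them is not reported here), up to 3 called genes of the red cell lists in each direction of each comparison, 1 example from each of 3 marker lists, the 8 genes most like each globin sum, and Col2a1, Acan, Ibsp and Spp1. Mb was named after its value was seen. Replicate numbers were not used to pair libraries in the main fit, because no such pairing is described. Same-number correlations of deviations from group means ran from -0.55 to 0.37, with 2 of 9 over 0.1. With 3 libraries in a group these values do not settle whether the numbers pair libraries. Work used Python 3.11.15, pandas 2.3.3, numpy 2.4.6 and matplotlib 3.10.9.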

Additional observations from a re-analysis of the deposited data

How the results depend on the processing

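Over the alternatives, 152 values stayed within 1.5 times (counts) or within the spread between replicates (levels and shares), and 55 moved. No pairing by replicate number is described. With the replicate block, 234 genes were called for the base against the control vault and 19 between the vaults. For the MCAGF8 vault against the base there were 918. Red cell genes among them numbered 1, 0 and 4. In the same order of comparisons, genes called numbered 291, 71 and 834 at a mean of at least 5 FPKM, 108, 174 and 875 with only the groups compared, 257, 0 and 869 without moderation, and 863, 175 and 984 without base replicates 1 and 3. Between the vaults, 191 were called with a pseudocount of 0.1 and 66 without a filter. Leaving out 1 library gave 132 to 1322, 11 to 231 and 559 to 4580 genes called, and 0 to 3, 0 to 1 and 3 to 12 red cell genes called. For the base against the control vault, red cell genes called numbered 4 after quantile normalization, when 626 of all genes were called. After rescaling without globins they numbered 3, when 460 of all genes were called. Between the vaults 1 was called with a pseudocount of 0.1, and for the MCAGF8 vault against the base 3 at a mean of at least 5 FPKM. Rescaling moved the median of all genes from -0.01 to 0.13 between the vaults and from -0.07 to 0.12 for the MCAGF8 vault against the base. The cause of these shifts was not tested.

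The adult globin sum of the base against the control vault was -1.64 and the embryonic sum -1.74 without base replicates 1 and 3. The adult sum between the vaults was 0.11 after quantile normalization and 0.0081 with the length trend removed, so its direction is not settled. For the MCAGF8 vault against the base it was 1.35 without base replicates 1 and 3 and 1.16 with the length trend removed. The embryonic share differed by 0.78 points in alpha-type and 12.2 in beta-type globins between the vaults, and by 1.34 and 12.8 points for the MCAGF8 vault against the base. Without 1 library each, the share difference ran from 5.08 to 8.02 points between the vaults, from 5.50 to 8.76 against the base, and from -2.15 to 1.11 for the base against the control vault. The adult sum ran from -1.19 to -0.65, -0.45 to -0.11 and 0.35 to 0.89, and the embryonic sum from -1.51 to -0.75, 0.20 to 0.76 and 1.18 to 1.95, for the base against the control vault, between the vaults and for the MCAGF8 vault against the base.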
